A study of Arabidopsis thaliana with 4 samples.

Results

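The genes described here belong to 3 families of plant enzymes that modify small molecules: cytochrome P450 monooxygenases (P450), UDP-dependent glycosyltransferases (UGT) and glutathione transferases (GST). They were chosen with earlier results of these data known, by a rule on symbols and probes. The rule took genes whose symbol in the gene table has the form of a P450, UGT or GST name. Each also needed an array probe listing only that gene, with a value on all 4 arrays. That gave 27 genes of the 5386 genes that could be tested, namely 3 P450, 18 UGT and 6 GST genes. Total RNA from inflorescences of the Arabidopsis thaliana mutant pistillata was compared with RNA from wild-type inflorescences on 4 spotted oligonucleotide arrays, with pistillata in one channel and wild type in the other channel of each array. PISTILLATA is a floral organ identity gene, and its loss leaves flowers that lack petals and stamens. The pistillata allele, the wild-type accession, the growth stage and the number of plants behind each RNA were not stated in the sources at hand. Arrays are numbered 1 to 4 after their labelled sets. No label says that they hold separately grown plants, so every p-value reflects how these 4 hybridisations varied, which could be technical variation.

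P450 enzymes insert oxygen into lipids, hormones and defence compounds, and the CYP71 group is the broadest of them in plants. UGT enzymes then attach a sugar to many of the same kinds of molecule, including flavonoids, hydroxycinnamic acids, glucosinolate precursors and hormones, which changes their solubility, storage or activity. GST enzymes add the tripeptide glutathione to reactive compounds or carry such compounds, and the tau class (GSTU) is found in plants and responds to many stresses. In flowers, members of these families are known from pollen wall and pigment synthesis and from the making of volatile and defence compounds.

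Each value is the log2 of pistillata divided by wild type within an array, so a positive value means more and a negative value less RNA in pistillata. The sign is the likely direction, not a settled one. As deposited, arrays 1 and 3, which share the labelled channel order, had a Pearson's r of -0.29 over 26156 probes, and arrays 2 and 4 had -0.05, whereas r was 0.49 for arrays 1 and 4 and 0.65 for arrays 2 and 3. For the remaining pairs r was -0.30 for arrays 1 and 2 and 0.0057 for arrays 3 and 4. Pearson's r of array 4 with arrays 2 and 3 was thus near 0, while Spearman's rho was -0.33 with array 2 and -0.27 with array 3. Arrays 1 and 4 were therefore multiplied by -1, which puts the anther genes SWEET8, SHT, ATA20 and TUA1 on the wild-type side. Before this step their median was 2.91, -2.77, -3.15 and 3.72 on arrays 1 to 4. With the common sign exchanged, every higher value below would be lower and every lower value higher. The deposited columns had medians of -0.12, 0.14, 0.11 and -0.08 on arrays 1 to 4 over the probes of the main set, so their centring is unknown. The table gives ratios without signals, so neither a gene's level nor its height above background can be given. A ratio from whole inflorescences also cannot separate fewer cells of a type from less RNA per cell.

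A single gene of each family was higher in pistillata inflorescences and none was lower. These were CYP71B26, a P450 of the CYP71B subfamily, UGT73C1, a glucosyltransferase that forms O-glucosides of cytokinins, and GSTU23, a tau class GST. By limma with Benjamini-Hochberg adjustment over all genes, that is 3 of 27 members higher and 0 lower. Of all 5386 genes tested, 2.75% were higher and 5.79% lower at the same threshold, an adjusted p of 0.05, or 8.54% in either direction. At an unadjusted p under 0.05 by limma, 8 members were higher and 1 lower, where 20.3% of all genes were higher and 10.5% lower. With the sign exchanged the count would be 3 lower and 0 higher. With any 1 array left out 0 members were called: the limma adjusted p then ran from 0.0592 to 0.115 for GSTU23, from 0.0917 to 0.146 for CYP71B26 and from 0.0663 to 0.123 for UGT73C1, and the genes called higher in the whole table numbered 19 to 43 in place of 148. None was called either with arrays 1 and 2 and arrays 3 and 4 averaged first or with trended and robust variance moderation, and GSTU23 alone was called with a term for channel orientation. Of all genes, 21, 0 and 86 were called higher in these fits, in the same order.

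**Figure D1:**
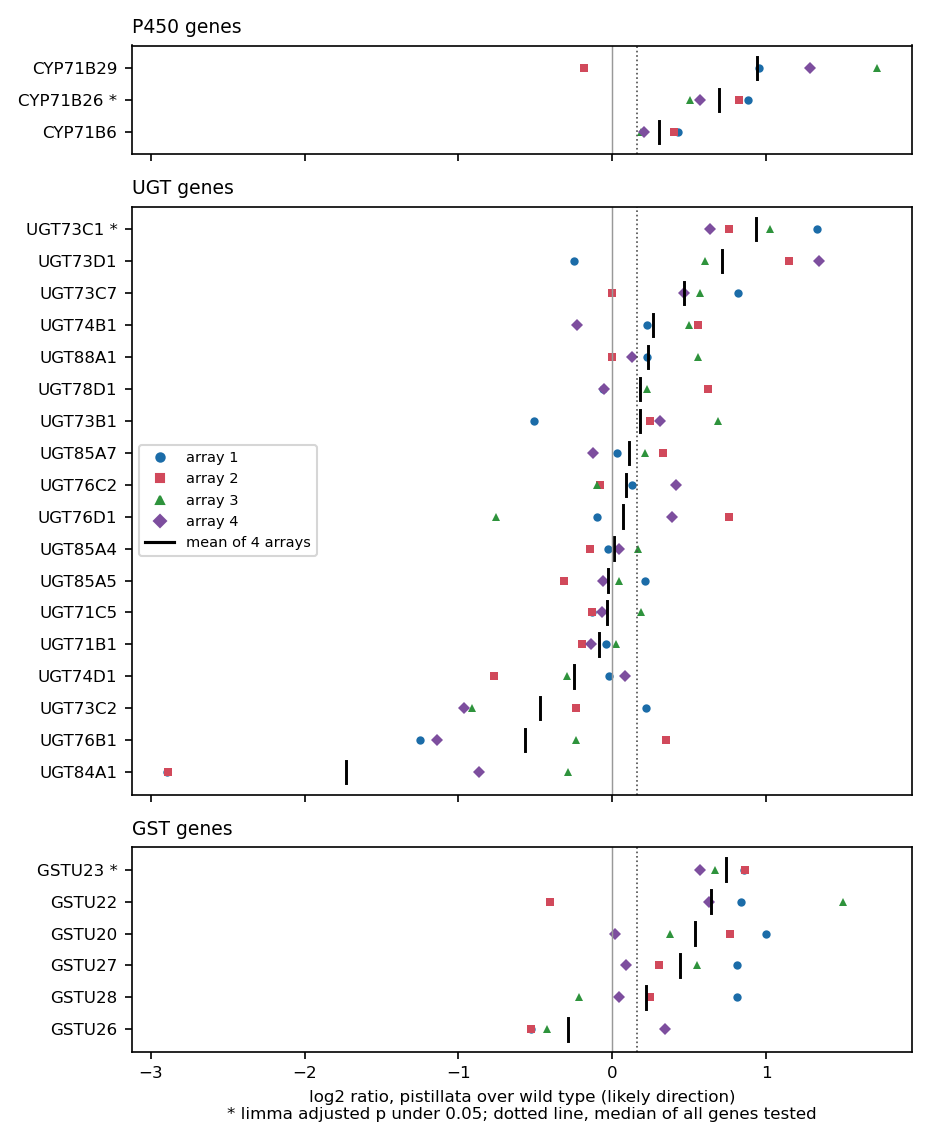
Log2 ratios with pistillata over wild type, likely direction (horizontal axis) for the 27 genes, one row per gene, with 1 symbol per array and a bar at the mean of the 4 arrays. The called genes CYP71B26, UGT73C1 and GSTU23 carry an asterisk and lie above 0 on all 4 arrays, and UGT84A1 is the only gene whose mean is below -1.

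The 3 P450 genes all belonged to CYP71B, a subfamily with 35 genes in the gene table, and stand for 1.33% of the table's 225 P450 genes. CYP71B26 had log2 ratios of 0.88, 0.83, 0.50 and 0.57 on arrays 1 to 4. All lay above 0 and within a narrow range, and the mean was 0.69 ± 0.19 (SD, n = 4; limma adjusted p = 0.0304), which is 1.62-fold higher in pistillata. CYP71B29 had ratios of 0.95, -0.18, 1.72 and 1.29. Its mean of 0.94 ± 0.81 (SD, n = 4) was the highest of all 27 genes, but array 2 lay below 0 and the gene was not called (limma adjusted p = 0.142). CYP71B6, which oxidises indole-3-acetonitrile in the branch that leads to indole carboxylic acids, had ratios of 0.43, 0.40, 0.18 and 0.21. Its 4 values were all above 0 but small, with a mean of 0.30 ± 0.13 (SD, n = 4; limma adjusted p = 0.124). Its 95% interval from limma ran from 0.05 to 0.56, so it includes values close to the median of all genes, 0.16.

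The 6 GST genes were all of the tau class, which has 27 of the 47 GST genes in the table, and none of the phi, lambda, theta or zeta classes had a probe of its own. GSTU23 had ratios of 0.86, 0.86, 0.67 and 0.57 on arrays 1 to 4. The arrays lay close together, with a mean of 0.74 ± 0.15 (SD, n = 4; limma adjusted p = 0.0203), which is 1.67-fold higher in pistillata and gave the smallest adjusted p of the 27 genes. Its neighbour on the chromosome, GSTU22, was less even, and so was GSTU20, a neighbour of GSTU22. GSTU22 had 0.84, -0.40, 1.503 and 0.63, with array 2 below 0 and a mean of 0.64 ± 0.79 (SD, n = 4; limma adjusted p = 0.244). GSTU20, which takes part in glucosinolate synthesis and binds the jasmonate-conjugating enzyme FIN219, had 0.997, 0.77, 0.38 and 0.02. All 4 of its values were above 0, the one on array 4 barely so, and the mean of 0.54 ± 0.43 (SD, n = 4) was not called (limma adjusted p = 0.142).

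The other GST genes lie elsewhere in the genome. GSTU27 had ratios of 0.81, 0.30, 0.55 and 0.09, above 0 on every array, with a mean of 0.44 ± 0.31 (SD, n = 4; limma adjusted p = 0.136). GSTU28 had 0.81, 0.25, -0.22 and 0.05, around a mean of 0.22 ± 0.44 (SD, n = 4; limma adjusted p = 0.455). GSTU26 was the only GST gene with a mean below 0. It had -0.53, -0.53, -0.43 and 0.34, so array 4 stood on the other side of 0 from the 3 others, and the mean was -0.29 ± 0.42 (SD, n = 4; limma adjusted p = 0.338).

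UGT genes spread over both sides of 0, and they are given here by the molecules they act on. Among those acting on hormones, UGT73C1 had ratios of 1.33, 0.76, 1.02 and 0.64. Its lowest value was 0.64, and the mean of 0.94 ± 0.31 (SD, n = 4; limma adjusted p = 0.0286) corresponds to 1.92-fold higher abundance in pistillata. UGT76C2, which adds glucose to the ring nitrogen of cytokinins, had 0.13, -0.08, -0.10 and 0.42, with a mean of 0.09 ± 0.24 (SD, n = 4; limma adjusted p = 0.649). Its 95% interval ran from -0.24 to 0.42 and ended below the interval of UGT73C1, 0.55 to 1.32. The difference between these genes was not tested. UGT74D1, which acts on auxin and its oxidised form, had -0.02, -0.77, -0.29 and 0.08, and averaged -0.25 ± 0.38 (SD, n = 4; limma adjusted p = 0.36). UGT71C5, which makes the glucose ester of abscisic acid, had -0.13, -0.13, 0.19 and -0.07, and its mean of -0.04 ± 0.15 (SD, n = 4; limma adjusted p = 0.831) had an interval of -0.31 to 0.24.

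Glucosyltransferases of immune signals varied more between arrays than they departed from 0. UGT76B1, which acts on salicylic acid, isoleucic acid and N-hydroxypipecolic acid, had ratios of -1.25, 0.35, -0.24 and -1.14. The values spanned 0, and the mean was -0.57 ± 0.76 (SD, n = 4; limma adjusted p = 0.272). UGT76D1, which acts on dihydroxybenzoic acids made from salicylic acid, had -0.10, 0.76, -0.76 and 0.39, and averaged 0.07 ± 0.66 (SD, n = 4; limma adjusted p = 0.873).

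UGT84A1, which makes glucose esters of hydroxycinnamic acids in the phenylpropanoid pathway, had the lowest mean ratio of the 27 genes. Its values on arrays 1 to 4 were -2.89, -2.89, -0.29 and -0.87. All were below 0, but arrays 1 and 2 lay far from arrays 3 and 4. The mean of -1.73 ± 1.36 (SD, n = 4) is 3.33-fold lower in pistillata, and it was not called (limma adjusted p = 0.115). Its 95% interval ran from -3.14 to -0.33, and 3.58% of all genes tested had a lower mean. UGT73C7, which also acts on hydroxycinnamic acids, had 0.82, 0.0008, 0.57 and 0.47, so array 2 showed no difference, with a mean of 0.46 ± 0.34 (SD, n = 4; limma adjusted p = 0.136). UGT78D1, the flavonol rhamnosyltransferase, had -0.06, 0.62, 0.23 and -0.06 and averaged 0.18 ± 0.32 (SD, n = 4; limma adjusted p = 0.44). UGT74B1, which adds the glucose in glucosinolate synthesis, had 0.22, 0.56, 0.50 and -0.23 and averaged 0.26 ± 0.36 (SD, n = 4; limma adjusted p = 0.325).

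The remaining 8 UGT genes are given without a substrate, and none was called. UGT73D1 had the highest mean of them, 0.71 ± 0.71 (SD, n = 4; limma adjusted p = 0.182), from ratios of -0.25, 1.15, 0.60 and 1.34. UGT73C2 had the lowest, -0.47 ± 0.57 (SD, n = 4; limma adjusted p = 0.247), from 0.22, -0.23, -0.91 and -0.97. Both had arrays on either side of 0. Between them lay UGT88A1 at 0.23 ± 0.24, UGT73B1 at 0.18 ± 0.50, UGT85A7 at 0.11 ± 0.20 and UGT85A4 at 0.01 ± 0.13 (SD, n = 4 each). Just below 0 were UGT85A5 at -0.03 ± 0.22 and UGT71B1 at -0.09 ± 0.10 (SD, n = 4 each), and the limma adjusted p of these 6 genes ran from 0.28 for UGT88A1 to 0.946 for UGT85A4. UGT71B1, with values between -0.20 and 0.02, had the smallest spread of all 27 genes.

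Set side by side, the P450 and GST medians lay above the median of all genes and the UGT median slightly below it. The median over genes of the mean log2 ratio was 0.69 for P450, 0.08 for UGT and 0.49 for GST genes, against 0.16 for all 5386 genes. Means above 0 were found for 3 of 3 P450, 11 of 18 UGT and 5 of 6 GST genes, against 68.8% of all genes. Means above the median of all genes were found for 3 P450, 7 UGT and 5 GST genes. On single arrays the P450 median was 0.88, 0.40, 0.50 and 0.57, the GST median 0.82, 0.28, 0.46 and 0.21, and the UGT median -0.02, 0.0001, 0.18 and -0.0043 on arrays 1 to 4. The median of all genes on the same arrays was 0.15, 0.15, 0.14 and 0.10. The P450 and GST medians were thus above it on every array, and the UGT median was above it on array 3 only. Single genes did not all follow, as GSTU26, GSTU22 and CYP71B29 were below 0 on array 2. GSTU26 was also below 0 on arrays 1 and 3, and GSTU28 on array 3. The UGT median changed with single arrays left out, to 0.10, 0.05, 0.05 and -0.009 without arrays 1, 2, 3 and 4. No test was made between families, whose members are not replicates, and the P450 values come from 3 genes of 1 subfamily. With the sign exchanged the order of the families would be turned round.

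**Figure D2:**
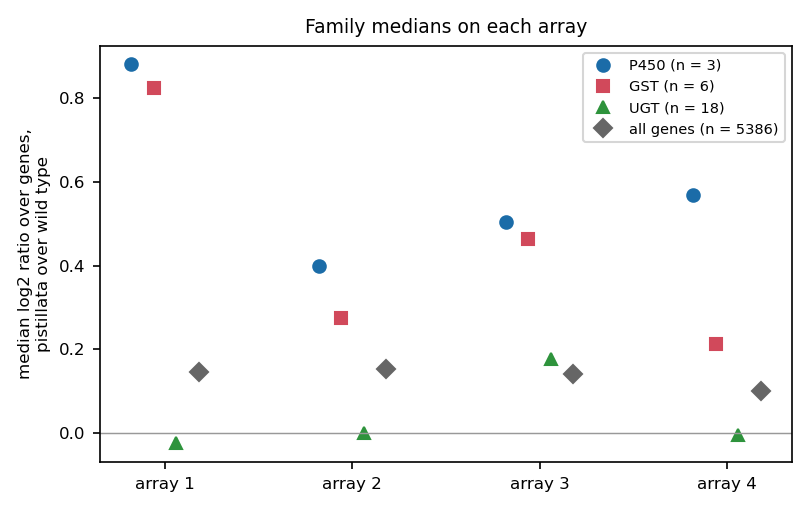
Median log2 ratio of pistillata over wild type (vertical axis) on each array for 3 P450, 6 GST and 18 UGT genes and for all 5386 genes tested. P450 and GST medians lie above the all-gene median on all 4 arrays, by 0.11 to 0.73 log2 units, and UGT medians lie within 0.17 of it.

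The signs over the 4 arrays were counted for each family, with no test between families. Of 18 UGT genes, 2 were above 0 on all 4 arrays, UGT73C1 and UGT73C7 (the second with 0.0008 on array 2), 1 was below 0 on all 4, UGT84A1, and 15 had mixed signs. For P450 genes 2 of 3 and for GST genes 3 of 6 were above 0 on all 4 arrays, and 0 were below. Of all genes tested, 30.7% were above and 12.9% below 0 on all 4 arrays. The SD over the 4 arrays had a median of 0.34 over the 27 genes and 0.29 over all genes, with 0.19 for P450, 0.33 for UGT and 0.43 for GST genes.

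Several members are neighbours on a chromosome, within 5 genes in the gene table, and such genes are often recent duplicates. The pair UGT73C1 and UGT73C2, adjacent genes of 1 subfamily, gave different ratios. UGT73C1 exceeded UGT73C2 by 1.11, 0.996, 1.94 and 1.60 log2 units on arrays 1 to 4. The mean difference was 1.41 ± 0.44 (SD, n = 4; two-sided exact permutation p = 0.125), and 0.125 is the smallest p that this exact test can give with 4 arrays, so it cannot reach 0.05. For the other pairs the order of the genes changed between arrays. GSTU23 minus GSTU22 averaged 0.10 ± 0.87, GSTU22 minus GSTU20 0.10 ± 1.0004, UGT73D1 minus UGT73C7 0.25 ± 0.99 and UGT85A7 minus UGT85A5 0.14 ± 0.36 (SD, n = 4 each). Their two-sided exact permutation p-values were 0.875, 1, 0.625 and 0.75. These 5 differences were the only ones computed between neighbours, and adjusted over them the smallest p was 0.625.

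**Figure D3:**
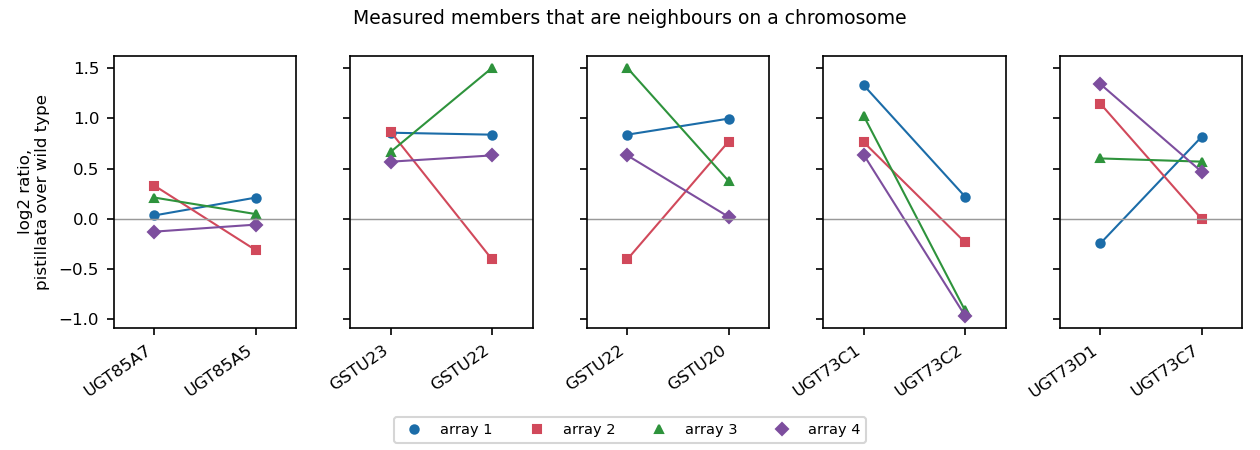
Log2 ratios of pistillata over wild type (vertical axis) for 5 pairs of neighbouring genes, with 1 line per array joining the genes of a pair. UGT73C1 lies above UGT73C2 on all 4 arrays, and in the other 4 pairs the lines cross.

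Probes that list several genes, at least 1 of them of these families, gave values that belong to no one gene, and they are described by what they list. There were 44 such probes, 5 with a P450 gene, 37 with a UGT gene and 2 with a GST gene, counting genes known under a UGT synonym. Of the 37, 13 list 1 gene with a UGT name beside other genes. Of the 37 UGT probes, 8 were lower and 2 higher in pistillata by limma over all 26156 probes, and 4 of the 8 list 1 gene with a UGT name. That is 21.6% lower and 5.41% higher, where 7.23% of all probes were lower and 2.98% higher. Without arrays 1, 2, 3 and 4 in turn, 3, 2, 2 and 3 UGT probes were lower and 0, 1, 0 and 0 higher. Calls over all 5386 genes fell as well with 1 array left out, to 159 to 192 lower and 19 to 43 higher. With all 4 arrays they were 312 and 148. The share over all probes was not counted for these fits, so the drop is not a result about UGT probes. The median of the 37 was -0.16, against 0.14 for all probes, and 23 were below 0. These probes overlap in the genes they list, so they are not independent of each other.

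The lowest of these probes lists UF3GT and AT5G54010, which carry the synonyms UGT79B1 and UGT79B6. UF3GT is known as the enzyme that adds xylose to anthocyanins, and UGT79B6 as a flavonol glycosyltransferase of pollen. The probe had -3.99, -2.47, -2.83 and -2.95 on arrays 1 to 4, all far below 0, with a mean of -3.06 ± 0.66 (SD, n = 4; limma adjusted p = 0.00507). UF3GT also had a probe of its own, with -3.09, -2.32, -1.05 and -5.27. Its mean of -2.93 ± 1.77 (SD, n = 4) was as far below 0, but with the wider spread it was not called (limma adjusted p = 0.0741). Because its symbol lacks the UGT form, UF3GT is not among the 27 genes.

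Probes for other UGT groups were lower as well. The probe listing UGT73B2 and UGT73B3, glucosyltransferases that act on flavonoids, had -2.31, -1.62, -1.91 and -0.91 and averaged -1.69 ± 0.59 (SD, n = 4; limma adjusted p = 0.021). The probe listing UGT72E1, UGT72E2 and UGT72E3, which glucosylate monolignols and related aldehydes, had -0.73, -1.90, -1.66 and -1.68 and averaged -1.49 ± 0.52 (SD, n = 4; limma adjusted p = 0.0221). All 4 arrays were below 0 for both probes. The probe listing UGT89B1 with AT1G51210 and AT5G03490 was at -1.68 ± 0.60, the one listing UGT71B8 and AT3G21790 at -1.44 ± 0.37 and the one listing UGT76E1 and UGT76E2 at -0.91 ± 0.37 (SD, n = 4 each; adjusted p by limma 0.0226, 0.0112 and 0.0403). Of 2 probes listing UGT87A2 and AT2G30150, 1 was called, with a mean of -0.60 ± 0.18 (SD, n = 4; limma adjusted p = 0.0413). In the other direction, the probe listing UGT72B3 and AT1G01390 was at 1.22 ± 0.39 (SD, n = 4; limma adjusted p = 0.0201), with all 4 arrays between 0.78 and 1.64.

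Among P450 probes, the one listing CYP71B6, CYP71B36 and CYP71B37 had 0.89, 1.04, 0.85 and 0.43 and was higher in pistillata, with a mean of 0.80 ± 0.26 (SD, n = 4; limma adjusted p = 0.0312). It was the only 1 of 5 called, and it was not called without array 1, 2 or 3. The probe of CYP71B6 alone was 0.50 log2 units nearer to 0. A pair of probes listing CYP71B5 and CYP71B38 lay below 0, at -1.14 ± 1.05 and -0.64 ± 0.49 (SD, n = 4 each; adjusted p by limma 0.155 and 0.128), with array 4 at 0.03 on both. Neither passed, so the CYP71B probes as a whole lay on both sides of 0. The 2 probes listing GSTU15 and GSTU16 were at 0.12 ± 0.17 and 0.23 ± 0.25 (SD, n = 4 each; adjusted p by limma 0.5 and 0.314).

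**Figure D4:**
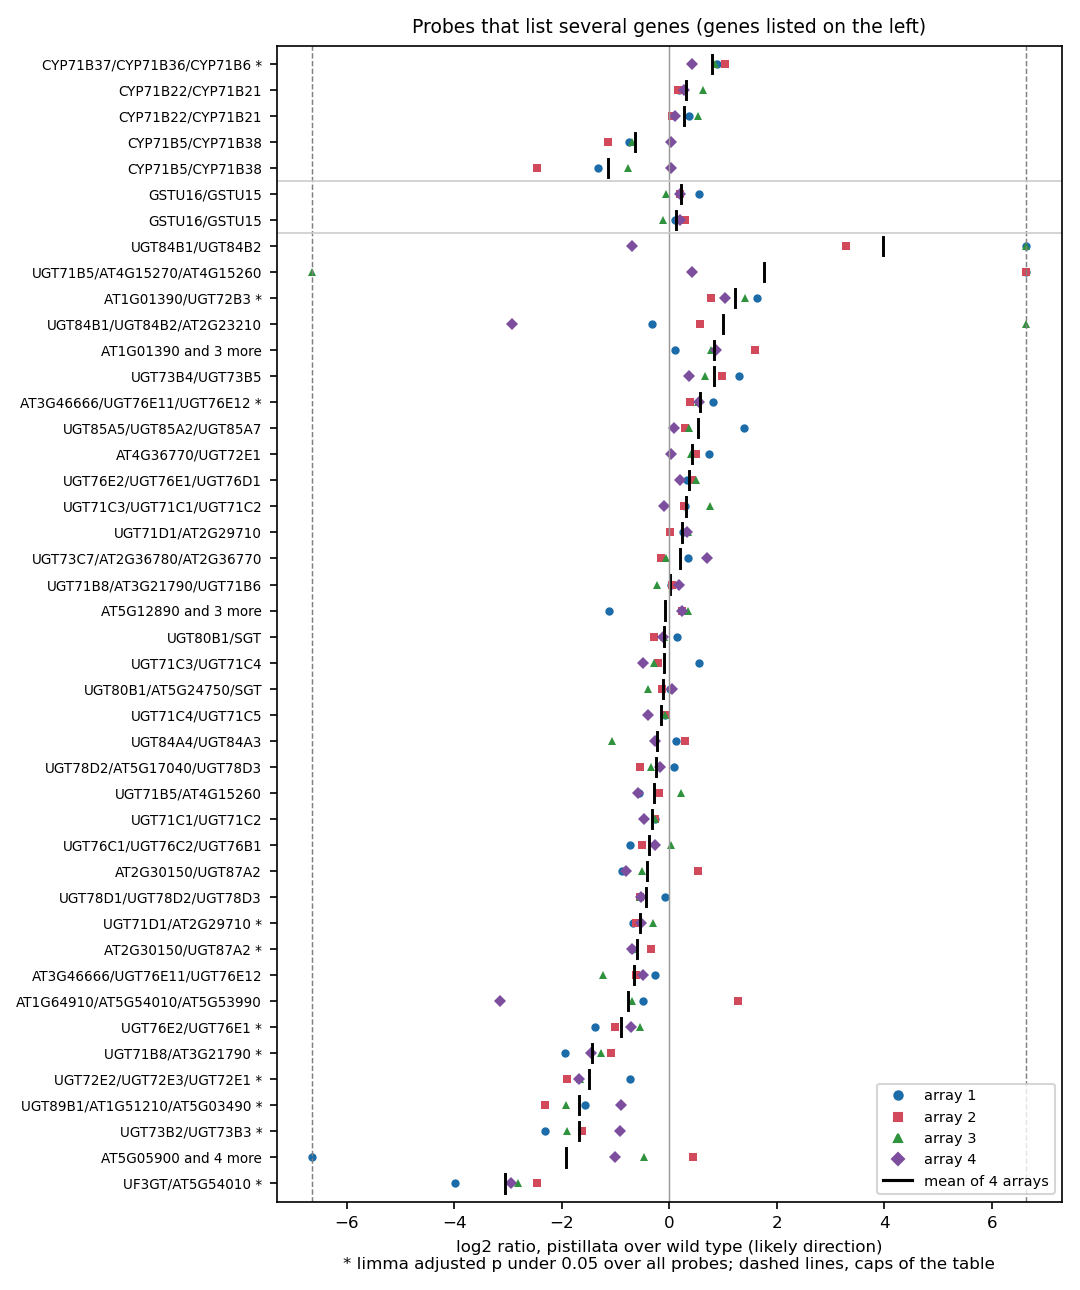
Log2 ratios with pistillata over wild type, likely direction (horizontal axis) for the 44 probes that list several genes, with 1 symbol per array, a bar at the mean and the P450, GST and UGT probes from top to bottom. Called probes carry an asterisk, the lowest being the one that lists UF3GT and AT5G54010, and 4 UGT probes have a value at a cap of the table.

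Probes that should see the same genes did not always give the same sign. Of 6 pairs of probes with identical gene lists, 2 had opposite signs. The probes listing UGT76E11, UGT76E12 and AT3G46666 were at -0.66 and 0.56, the second of them called higher (limma adjusted p = 0.0979 and 0.0471). Those listing UGT71D1 and AT2G29710 were at -0.54 and 0.24, the first of them called lower (limma adjusted p = 0.0494 and 0.213). Of the 27 genes, 11 were also listed on a shared probe, in 12 combinations, and own and shared probe had opposite signs in 4. UGT78D1 was at 0.18 by its own probe and at -0.43 by the probe that also lists UGT78D2 and UGT78D3, and neither value passed limma's test. Each of the 27 genes rests on 1 probe, so no member has a second measurement of its own.

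Genes of related pathways had few probes of their own. In the pollen wall and spermidine conjugate list SHT was the only 1 of 15 genes measured, lower at -3.66 ± 0.82 (SD, n = 4; limma adjusted p = 0.006), and it helped to set the sign. The phenylpropanoid and flavonoid list of 27 genes had 2 measured, UGT78D1 and UF3GT, and the glucosinolate list of 22 genes had 2, UGT74B1 and GSTU20. None of these 4 passed. Of the 8 electron partners of P450 enzymes and the 27 genes of glutathione supply and conjugate transport, 0 were measured. Of 22 genes that carry a P450, UGT or GST name only as a synonym, 2 were measured, UF3GT and GT72B1. GT72B1, which glucosylates monolignols and chlorinated phenols, had 1.07, 0.48, -0.11 and 0.26 and averaged 0.42 ± 0.50 (SD, n = 4; limma adjusted p = 0.244).

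Marker genes were read from the same arrays. The 4 anther genes ranged from -3.71 for SWEET8 to -0.47 for TUA1, with 3 of 4 called lower. They helped to set the sign, so their direction was fixed in advance and is not a result. The nectary transporter SWEET9 was lower at -4.88 ± 0.44 (SD, n = 4; limma adjusted p = 0.00112). The ovule gene INO stood at -0.20 ± 0.18 and the Calvin cycle gene SBPASE at 0.54 ± 0.33 (SD, n = 4 each; adjusted p by limma 0.288 and 0.103), each the only gene of its list with a probe of its own. The petal and root lists had 0 genes measured. The means of UF3GT and of its shared probe lay within the range of the anther genes. That range is wide because of TUA1, and it also held UGT84A1 at -1.73 and UGT76B1 at -0.57. UGT73C2, at -0.4727, lay just inside its end at TUA1, -0.4721. The means of CYP71B26, UGT73C1 and GSTU23 lay above that of SBPASE. So did those of the uncalled CYP71B29 (0.94), UGT73D1 (0.71), GSTU22 (0.64) and, barely, GSTU20 (0.54). The part of anther, petal, nectary or green tissue in the values of the enzyme genes was not tested.

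**Figure D5:**
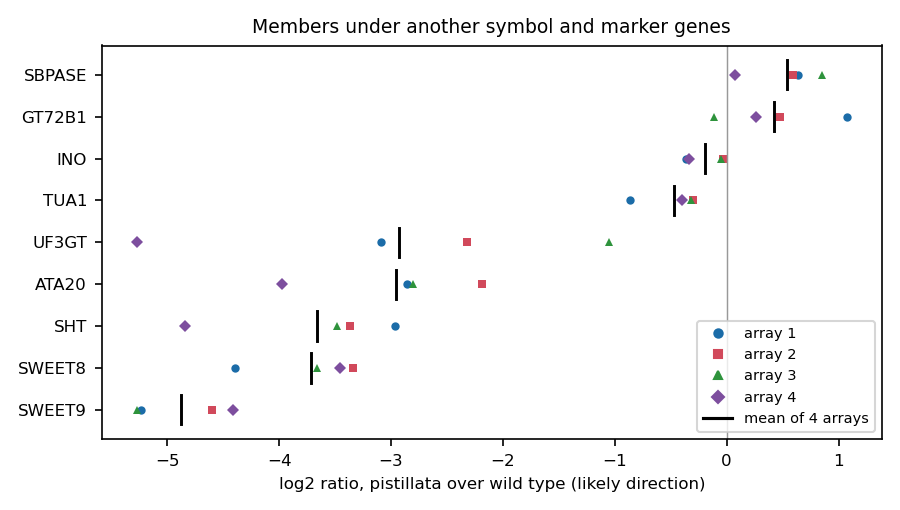
Log2 ratios with pistillata over wild type, likely direction (horizontal axis) for UF3GT and GT72B1, which carry UGT names as synonyms, and for marker genes, with 1 symbol per array and a bar at the mean. UF3GT spans -5.27 to -1.05. That span holds the means of the anther genes ATA20, SHT and SWEET8 and of the nectary gene SWEET9 (-4.88). It does not hold that of the anther gene TUA1 (-0.47), and GT72B1 has arrays on both sides of 0.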

How the data were processed

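Ratios came from 4 spotted 2-channel arrays of pistillata against wild-type inflorescences. The deposited log2 values are the authors' ratios of the channels, normalized by a method that the labels refer to a publication for, per the labels; background correction, numerator, centring and genome build were not stated in the sources at hand. The largest size of a value is 6.64, the log2 of 100, and none of the 27 genes had a value at such a cap. The precision is limited by the number of arrays, 4.

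Of 26474 gene probes, 5784 listed 1 gene in the platform annotation supplied for this work. They named 5443 genes, of which 5415 took their symbol from the gene table (assembly TAIR10.1), and 5386 had values on all 4 arrays. Several probes of a gene were averaged. Arrays 1 and 4 were multiplied by -1. Changes were tested with limma 3.58.1 in R 4.3.3 (lmFit with an intercept, then eBayes, two-sided, Benjamini-Hochberg over all genes, threshold 0.05), and the fit was tested on simulated data. Shared probes were tested over all 26156 complete probes. No set test was used.

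The members, lists and tests were chosen with earlier results of these data known. All called members, the extremes of each family, all GST genes and neighbours were to be named, and the other members were added so that every member has its value. CHI was dropped from the flavonoid list because the gene table gives that symbol to a chitinase. Alternatives were other centring and scaling, other probe filters, array weights, pairing of arrays, a channel term, other variance moderation, another threshold, the labels' channel order and leaving out each array; tests of single and shared probes were added, and shared probes were picked for naming, after the data were seen. No sequences are printed, since none were supplied.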

Additional observations from a re-analysis of the deposited data

Results flagged for a closer look

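GSTU26 had a log2 ratio of 0.34 on array 4, apart from its values on the 3 other arrays, and the gap to the nearest of them made up 0.881 of the whole range. No other of the 27 genes had such a value. Chance alone gives such a value for about 1 gene in 20, so 1 of 27 is not above that rate. Without array 4 its mean was -0.50, against -0.29 with all 4 arrays, and its limma adjusted p was 0.113, so it was not called either way.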

How the results depend on the processing

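CYP71B26, UGT73C1 and GSTU23 kept a positive sign under every alternative run except the labels' channel order, in which no sign is known, with means of 0.58 to 0.76, 0.81 to 1.04 and 0.63 to 0.80. They passed limma's threshold after centring, after centring and scaling, with values on at least 3 arrays, without capped probes, with genes of 1 probe only, with array weights, with pairs as a random block and in the test of single probes over all probes. The share of all genes called higher, 2.75% in the main fit, moved as well. It was 11.2% with the random block, 6.78% with array weights and 6.03% without capped probes. With centring it was 1.39%, and 1.63% with centring and scaling. It was 1.6% with the channel term, 0.39% with averaged pairs, 0.353% at an adjusted p of 0.01 and 0.353% to 0.798% without 1 array. The number of genes called higher was 0 in place of 1 in each of the 3 families with arrays 1 and 2 and arrays 3 and 4 averaged first, with trended and robust moderation, at an adjusted p of 0.01 and without any 1 array (0 to 0). With a term for the channel orientation it was 0 for P450 and UGT genes and 1 for GST genes. Turned by the labels' channel order, 0 genes of each family were called in either direction, and 0 of all genes. Averaging pairs and leaving out an array leave fewer values per gene. With trended and robust moderation 0 of all genes were higher; the cause was not tested. The estimated correlation within array pairs was -0.30, so the random block made no allowance for shared RNA.

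With centring, all genes had a median of 0.05 in place of 0.16, a shift of 0.11. The UGT median was then -0.0327, and -0.0271 with centring and scaling, in place of 0.08, and it ran from -0.009 to 0.10 without 1 array. Calls over all genes were 82.5% lower with centring and 79.8% with centring and scaling, in place of 67.8%. That share was 57.2% without capped probes, 52.0% with array weights, 85.4% with averaged pairs, 42.6% with the random block, 100% with trended and robust moderation, 88.4% at an adjusted p of 0.01 and 81.7% to 90.4% without 1 array. The P450 and GST medians moved by less than their spread over arrays under each alternative run for them.

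Some uncalled UGT genes near 0 changed sign. With centring these were UGT85A4 (-0.10), UGT76D1 (-0.0412), UGT76C2 (-0.0242) and UGT85A7 (-0.0022), and with centring and scaling UGT85A4 (-0.11), UGT76D1 (-0.0173) and UGT76C2 (-0.0368). UGT85A4 was -0.0138 with array weights. Leaving out 1 array gave UGT85A5 -0.11 to 0.0662, UGT85A4 -0.0401 to 0.063, UGT76D1 -0.16 to 0.35 and UGT76C2 -0.019 to 0.15.

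UF3GT passed without capped probes (limma adjusted p = 0.0253), with averaged pairs (0.0394) and with the random block (0.0265), and SHT did not pass with averaged pairs (0.053). Shared UGT probes called lower numbered 2 to 3 without 1 array and 2 with averaged pairs, in place of 8. Over all genes, lower calls were 159 to 192 and 123 in these fits, in place of 312. Shared UGT probes called higher numbered 0 to 1 without 1 array, 0 with averaged pairs, 1 with centring and 3 without capped probes, in place of 2. Over all genes, higher calls were 19 to 43, 21, 75 and 311, in place of 148. The shared P450 probe called higher was 0 with averaged pairs and 0 to 1 without 1 array. Apart from the array pairs above, no fit with a replicate number as a block was made, since the arrays form 1 group. Background correction and a filter on dim probes were not run, since the values are ratios without signals, and depth over background is unknown.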
